A study of Homo sapiens with 10 samples.

Results

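The effect of wild-type BRM was compared with the effect of a BRM whose ATPase carries a point mutation. BRM (gene symbol SMARCA2) is one of the alternative motor subunits of the SWI/SNF complex, which uses ATP to move or evict nucleosomes. A lysine in the ATP-binding site is needed for that activity, and its exchange leaves a protein that can still join the complex but does not remodel chromatin. SWI/SNF is known as a co-activator of inducible genes, among them interferon-stimulated genes and genes of the extracellular matrix, and SWI/SNF subunits have also been linked to the choice of exons in the mRNA.

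The host was C33A, a human cervical carcinoma cell line known for lacking BRG1 and BRM protein. The cells were transiently transfected for 48 h with pCG-hBrm (BRM-wt), with pCG-hBrm-K798R (BRM-mut) or with the empty vector pOPRSVI (control). Each group had 2 replicates, so the comparison holds 4 of the 10 samples of the series, with the 2 control samples as the reference of both arms, and the other 4 samples received BRG1 plasmids. The BRM plasmids and the empty vector carry different backbone names. The labels do not say whether replicates were separate cultures, so p-values do not reach beyond these samples. RNA-seq libraries were made from oligo-dT-primed cDNA.

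For expression, the deposited tables gave each gene 1 base mean, which is the mean normalised read number over 2 control and 2 transfected libraries, and 1 shrunken log2 fold change against the control. Values of single libraries are therefore not given here, and the depth of each library is not known from these tables. The difference of the effects (BRM-wt effect minus BRM-mut effect) was tested where both tables gave a base mean of 10 or more, which held for 16084 of 63152 gene entries. For splicing, PSI (percent spliced in, the fraction of transcripts that include an exon, from 0 to 1) was available for each library, but an exon was listed only where it differed from the control of the same replicate. The 4 tables of the BRM groups listed 2085 distinct exons, of which 118 could be compared in replicate 1 and 129 in replicate 2.

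The transfected gene was far above the control level in both arms. SMARCA2 (ENSG00000080503, GRCh37 chr9:1980290-2193624) had a base mean of 59658 in the BRM-wt table and 75591 in the BRM-mut table, against 12.6 in the table of wild-type BRG1, which has the same controls. The control mean can be at most 18.4 normalised reads, so the BRM-wt mean was at least 6484-fold above it. The shrunken log2 fold change of SMARCA2 was nevertheless 2.20 for BRM-wt and 2.11 for BRM-mut, which shows how strongly the deposited fold changes are pulled towards 0. The difference of 0.10 ± 0.32 (SE) did not pass the test (adjusted p = 1.00, normal test with Benjamini-Hochberg adjustment). Without shrinkage SMARCA2 was higher in BRM-mut, with a mean of at least 142078 normalised reads, against at most 119317 in BRM-wt. Its difference of Wald statistics was -5.56 (adjusted p = 0.0653, normal test with Benjamini-Hochberg adjustment). SMARCA4, the gene of the alternative motor BRG1, had base means of 3864 and 3076, and its difference of 0.35 ± 0.32 did not pass either. Of the markers used to check the cell type, KRT8, KRT18 and CDKN2A were expressed, with base means of 371, 591 and 1867 in the BRM-wt table. EPCAM was low at 22.6, and CDH1 (5.31) and KRT19 (1.19) were near 0, so the epithelial markers were only partly present. PTPRC, a marker of blood cells, had base means of 1576 and 1851 in the BRM-wt and BRM-mut tables, whereas CD3E and HBB were at 0 in both, ALB and DES were under 10, and PECAM1 was not matched.

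The genes that differed between BRM-wt and BRM-mut were all higher with BRM-wt. Of the 16084 genes, 43 (0.267%) passed adjusted p < 0.05, all 43 higher in BRM-wt and 0 lower, by the normal test of the difference with Benjamini-Hochberg adjustment. At an unadjusted p under 0.05 there were 222 genes, of which 3 were lower in BRM-wt. The BRM-mut fold changes were shrunken more strongly, with a highest standard error of 0.159, beside 0.282 for BRM-wt. A gene changed by BRM-mut alone was therefore less able to pass, and the direction of the calls may in part come from the test. In bulk RNA, more cells that express a gene and more RNA per cell cannot be told apart. The difference of the 43 genes ran from 1.17 to 2.52 on the shrunken log2 scale, beside a median of 0.01 over all genes tested. Their log2 fold change against the control ran from 1.10 to 2.52 in BRM-wt and from -0.19 to 0.21 in BRM-mut. All 43 had an adjusted p under 0.05 in the BRM-wt table, where 101 genes did, and 2 genes did in the BRM-mut table. These were SMARCA2 itself and HSPA6, a stress-inducible HSP70 gene. HSPA6 had a base mean of 149 in the BRM-mut table and 21.8 in the BRM-wt table, and its difference of -0.12 ± 0.29 did not pass. The plot of both shrunken effects per gene shows the 43 genes along the horizontal axis and SMARCA2 near the diagonal.

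**Figure D1:**
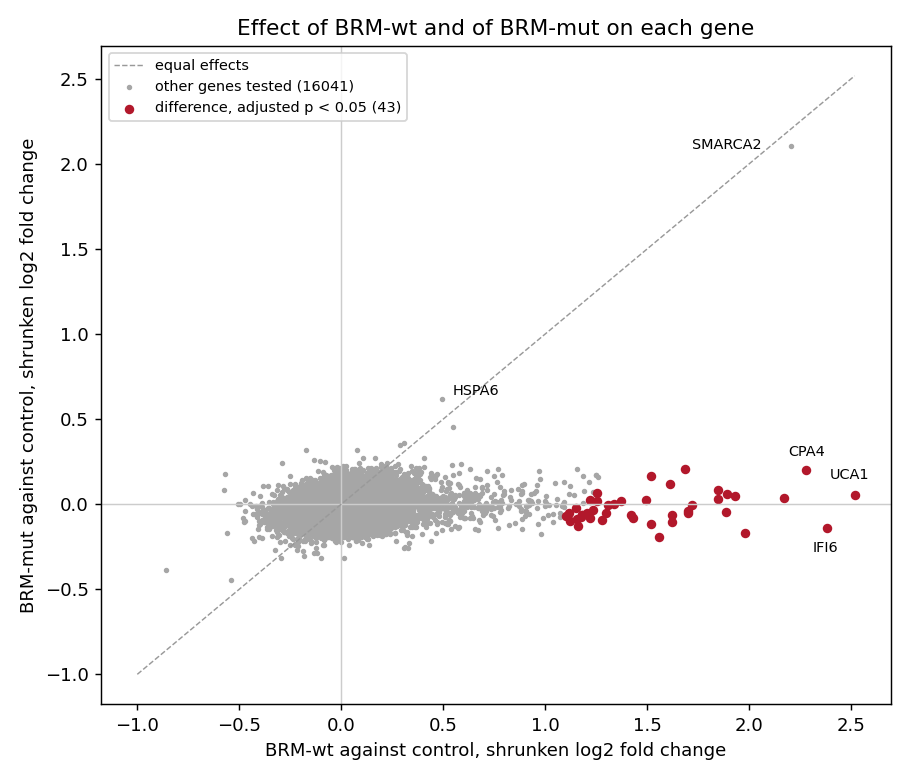
Each point is a gene, placed by its shrunken log2 fold change against the control in BRM-wt (horizontal axis) or BRM-mut (vertical axis). The 43 red genes passed the test of the difference and lie between 1.10 and 2.52 on the horizontal axis and between -0.19 and 0.21 on the vertical axis, SMARCA2 lies near the dashed line of equal effects, and no error bars are drawn.

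A second measure is free of shrinkage. The ratio of the base means of the BRM-wt and BRM-mut tables, scaled so that the median gene has a ratio of 1, is a lower bound of the fold between the transfected groups wherever it is above 1, because both base means contain the same control libraries. It has no error and no test. The ratio was at least 2 for 143 genes (0.889%) and at most 0.5 for 2 genes, HSPA6 with 0.156 and the pseudogene RPL9P9 with 0.438. All 43 genes of the test had a ratio of at least 2.03, with a median of 4.47 and a highest value of 47.8.

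The genes with the smallest p were of mixed function. UCA1 (ENSG00000214049, GRCh37 chr19:15939016-15947138), a long non-coding RNA studied in bladder carcinoma, had base means of 707 and 107 in the BRM-wt and BRM-mut tables. Its difference was 2.46 ± 0.31 (adjusted p = 1.23e-11). The BRM-wt level of UCA1 was therefore at least 7.03-fold that of BRM-mut. IFI6 (ENSG00000126709, chr1:27992575-27998723), an interferon-induced mitochondrial protein, had base means of 1461 and 158, a difference of 2.52 ± 0.32 (adjusted p = 1.23e-11) and a ratio of 9.83. ALPK2 (chr18:56148479-56296323), an alpha-kinase, went from 36.0 in the BRM-mut table to 241 in the BRM-wt table, with a difference of 2.14 ± 0.30 (adjusted p = 4.74e-09). LGALS3BP (chr17:76967320-76976029), a secreted ligand of galectin-3, had base means of 418 and 65.8 and a difference of 2.15 ± 0.31 (adjusted p = 9.33e-09). The carboxypeptidase gene CPA4 (chr7:129932974-129964020) had base means of 531 and 57.5 and a difference of 2.08 ± 0.31 (adjusted p = 1.00e-07).

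KLHDC8A, which encodes a kelch-domain protein, followed with base means of 95.1 and 15.0 and a ratio of 6.75. MYO10, an unconventional myosin of filopodia, had base means of 486 and 124 and a difference of 1.88 ± 0.31. ANXA3, a calcium-dependent phospholipid-binding annexin, had base means of 237 and 41.6 and a difference of 1.83 ± 0.31. DHX58, which encodes the RNA sensor LGP2, had base means of 124 and 25.7 and a difference of 1.75 ± 0.30. F3, the tissue factor that starts blood coagulation, had base means of 581 and 141 and a difference of 1.81 ± 0.32. These 5 genes had adjusted p between 1.16e-07 and 1.45e-05. In all of the 10 leading genes the BRM-mut fold change against the control lay between -0.17 and 0.20 on the log2 scale.

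Interferon-stimulated genes formed the largest named group. Of 30 listed genes 22 were tested, and 7 passed, all higher in BRM-wt, beside 0.267% of all genes. The difference was above 0 in 22 of 22 members with a median of 0.88, and 17 of 22 had a ratio of base means of at least 2, beside 0.889% of all genes. Beside IFI6, the called members were IFI35, OAS1, OAS3, IFI27, MX1 and IFIT1. With Wald statistics IFI6, IFI35, OAS1 and OAS3 still passed. MX1 (adjusted p = 0.311), IFI27 and IFIT1 (both 0.379) did not, by the normal test with Benjamini-Hochberg adjustment. MX1, a dynamin-like GTPase that blocks incoming viruses, had base means of 1491 and 33.2, so that its level in BRM-wt was at least 47.8-fold that in BRM-mut, although its shrunken difference was 1.17 ± 0.28 (adjusted p = 0.0122). OAS1, OAS2 and OAS3 encode enzymes that make 2'-5' oligoadenylates and activate RNase L, and they lie next to each other on chromosome 12. OAS1 had base means of 692 and 22.5 and a difference of 1.63 ± 0.29. OAS3 had base means of 6560 and 1458 and a difference of 1.75 ± 0.32. OAS2 had base means of 1404 and 43.3 and a ratio of 34.5, but its difference of 1.07 ± 0.28 did not pass (adjusted p = 0.0583).

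IFIT1, which binds viral RNA caps, had base means of 8002 and 1269 and a ratio of 6.71. IFI35 had base means of 204 and 55.3, and IFI27 had 125 and 27.7. The transcription factors IRF9, STAT2 and IRF1 did not pass the test. IRF9 had base means of 194 and 97.4 (adjusted p = 0.0794). Its ratio of base means was 2.12, whereas STAT2 had a ratio of 1.78 and IRF1 of 1.40. The smallest values were those of PSMB8 and ISG20, with differences of 0.22 and 0.47. The plot of both base means per gene shows the red points of the BRM-wt table to the right of the blue points in each gene drawn.

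**Figure D2:**
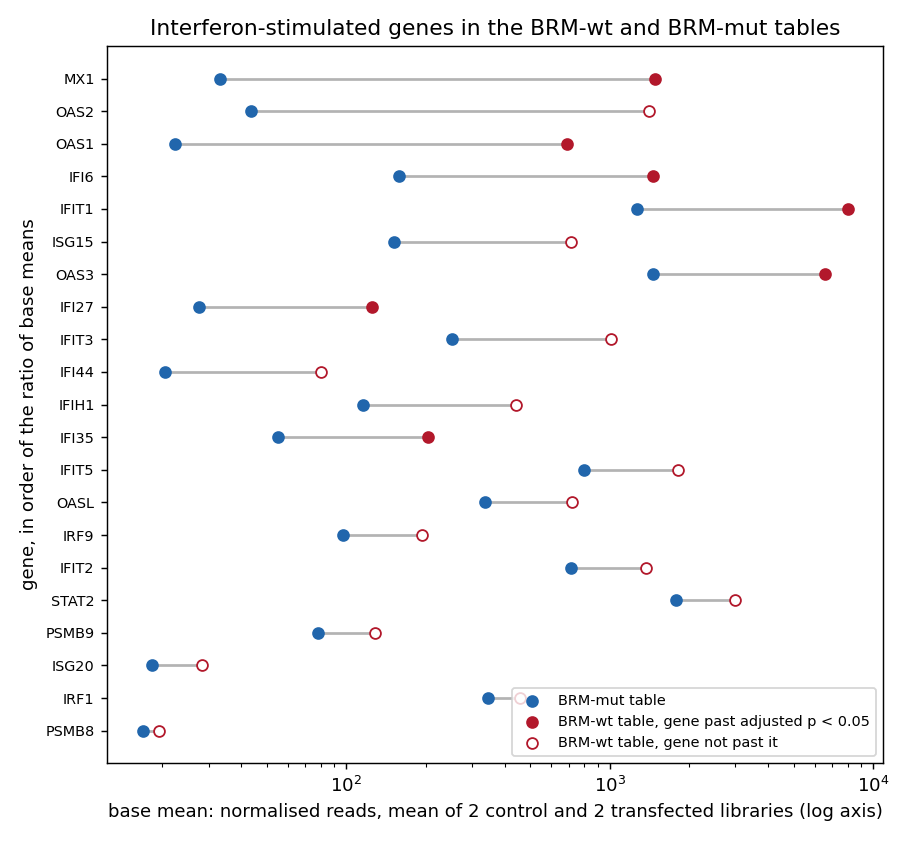
Base means (normalised reads, log axis) of 21 of the 22 interferon-stimulated genes tested, in the BRM-mut table (blue) and the BRM-wt table (red, filled where the difference passed adjusted p < 0.05), in order of their scaled ratio. Each value is a mean of 4 libraries, 2 of them controls shared by both tables, without error, and the gap is widest for MX1 (33.2 to 1491) and narrowest for PSMB8 (16.9 to 19.5).

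Several called genes outside that list are also known to be induced by interferon, a grouping made after their values were seen. Of those named here only NLRC5 still passed with Wald statistics (adjusted p = 0.0370, normal test with Benjamini-Hochberg adjustment). DDX60, a helicase of the antiviral response, had a ratio of base means of 6.25. PARP9 and DTX3L, which encode partners in one ubiquitin ligase complex and lie next to each other on chromosome 3, had ratios of 6.01 and 4.92. CMPK2, a mitochondrial nucleotide kinase, had a ratio of 8.29, and PLSCR1, a phospholipid scramblase, of 5.91. USP18, which removes ISG15 from proteins, had a ratio of 2.87, the helicase gene HELZ2 of 3.66, and NLRC5, an activator of MHC class I genes, of 3.75. Reads of PARP9 and DTX3L could overlap, as the counting was not stated to use strand.

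The promoters of the called genes were searched for short motifs, chosen after the values had been seen. RefSeq promoters (GRCh38.p14, 250 bases before to 50 bases after the start) were given for 32 of the 43 genes and for 10829 of the genes tested. The core of the interferon-stimulated response element, GAAA, 2 bases of any kind and again GAAA on either strand, was found in 9 of 32 (28.1%), beside 2.69% of promoters of genes tested and 3.65% of all 27305 promoters. In 7 of these 9 a copy lay before the gene start, and 6 of them are shown as examples. The other 23 promoters lacked the motif, and outside the interferon list 4 of 25 promoters of called genes (16%) held it. These were the promoters of LGALS3BP and of DDX60, PLSCR1 and DTX3L, the last 3 named above as induced by interferon. Capitals mark the motif. The windows lie at chr1:27672262-27672362 (IFI6, minus strand), chr14:94110614-94110664 (IFI27, plus), chr10:89392493-89392543 (IFIT1, plus), chr4:168318782-168318854 (DDX60, minus), chr17:78979958-78979995 (LGALS3BP, minus) and chr3:146544663-146544700 (PLSCR1, minus).
IFI6: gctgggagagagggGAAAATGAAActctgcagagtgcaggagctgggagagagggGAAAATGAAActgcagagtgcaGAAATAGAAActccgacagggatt
IFI27: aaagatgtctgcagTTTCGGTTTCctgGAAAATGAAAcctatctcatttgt
IFIT1: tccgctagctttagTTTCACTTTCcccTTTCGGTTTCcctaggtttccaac
DDX60: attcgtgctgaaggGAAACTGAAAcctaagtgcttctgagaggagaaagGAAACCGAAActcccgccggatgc
LGALS3BP: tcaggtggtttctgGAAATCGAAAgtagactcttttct
PLSCR1: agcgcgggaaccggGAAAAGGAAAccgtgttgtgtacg

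The IFI6 promoter held 3 copies, IFI27, IFIT1 and DDX60 held 2 copies each, and the other 2 promoters shown held 1 copy each. The AP-1 motif TGANTCA, the same on both strands, was present in 3 of 32 promoters (9.38%), beside 4.27% of promoters of genes tested. These were the promoters of CPA4, F3 and SLC7A8, the last a transporter of neutral amino acids. The TEAD motif GGAATG or CATTCC was present in 6 of 32 (18.8%), beside 10.3%, and in 4 of 25 (16%) outside the interferon list. A match describes the letters of these windows and is not evidence of a bound factor.

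A few annexin, S100 and matrix genes were also higher in BRM-wt. Among annexins and S100 proteins, 3 of 13 tested passed, all higher in BRM-wt, beside 0.267% of all genes, and the median difference of the list was 0.33. These were ANXA3, S100A16 with base means of 442 and 36.2, and S100A4, a calcium-binding protein of motile cells, with 193 and 57.5. The abundant annexins did not pass, and ANXA2 had a difference of 0.33 ± 0.28 and ANXA5 of -0.01 ± 0.29. Among extracellular matrix and adhesion genes 2 of 32 passed, both higher in BRM-wt, beside 0.267% of all genes, with a list median of 0.33. The interstitial collagenase gene MMP1 had base means of 641 and 134 and a difference of 1.76 ± 0.32 (adjusted p = 3.67e-05). LAMB1, a laminin chain, had a difference of 1.05 ± 0.31 that did not pass (adjusted p = 0.161).

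Of 9 keratin and epithelial junction genes tested, 1 passed, beside 0.267% of all genes. KRT8 had base means of 371 and 90.8 and a difference of 1.24 ± 0.31 (adjusted p = 0.0306), and it did not pass with the GC trend subtracted (adjusted p = 0.0802) or with Wald statistics (adjusted p = 0.379). KRT18, its filament partner, had base means of 591 and 263 and a difference of 1.08 ± 0.31 (adjusted p = 0.161). JUP, the junction protein plakoglobin, had a difference of 0.45 ± 0.28. In the list of RB pathway and E2F targets 1 of 35 passed, beside 0.267% of all genes. This was CDKN2B, which encodes the cyclin-dependent kinase inhibitor p15, with base means of 978 and 514, and it did not pass with Wald statistics (adjusted p = 0.379). The cyclin gene CCND1 had a difference of 0.61 ± 0.29 and CDKN1A, the p21 gene, of 0.59 ± 0.31, and neither passed. The median difference of that list, 0.01, was that of all genes.

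No member passed in the remaining 8 lists, by the normal test with Benjamini-Hochberg adjustment, beside 0.267% of all genes. At that share a count of 0 does not tell lists of this size from all genes. The 18 AP-1 and immediate early genes had a median difference of 0.13 with 1 member at an unadjusted p under 0.05, KLF4 (0.63 ± 0.31), and FOSL2 and JUND had 0.46 and 0.43. None of the members of the other 7 lists had an unadjusted p under 0.05, beside 1.38% of all genes. The median was 0.07 for 19 sterol and fatty acid synthesis genes, with SREBF1 and FASN at 0.40 and 0.27. It was 0.03 for 25 SWI/SNF subunits, where BCL7B (0.19) and DPF1 (0.17) followed SMARCA4. It was 0.02 for 77 cytosolic ribosomal proteins, with RPS15, RPLP1 and RPL29 between 0.27 and 0.29. For 42 core spliceosome genes it was -0.01, with SF3A2, XAB2 and SNRPB between 0.22 and 0.29, and for 18 cytosolic heat shock genes it was -0.04, with HSF1 at 0.24 and HSPB1 at 0.22. For 45 SR and hnRNP splicing regulators it was -0.05, and MBNL2 (0.44), PTBP1 (0.22) and SRSF12 (-0.17) had the smallest p. The 76 zinc finger genes of chromosome 19 had the lowest median, -0.08, with 66 of 76 below 0, and ZNF253, ZNF844 and ZNF568 had -0.39, -0.34 and -0.29. The genes MYL6, GADD45A and MAZ had differences of 0.16 ± 0.30, 0.17 ± 0.29 and 0.19 ± 0.32. The plot by gene list shows the called genes in the upper rows, apart from CDKN2B in the lower row of RB pathway and E2F targets.

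**Figure D3:**
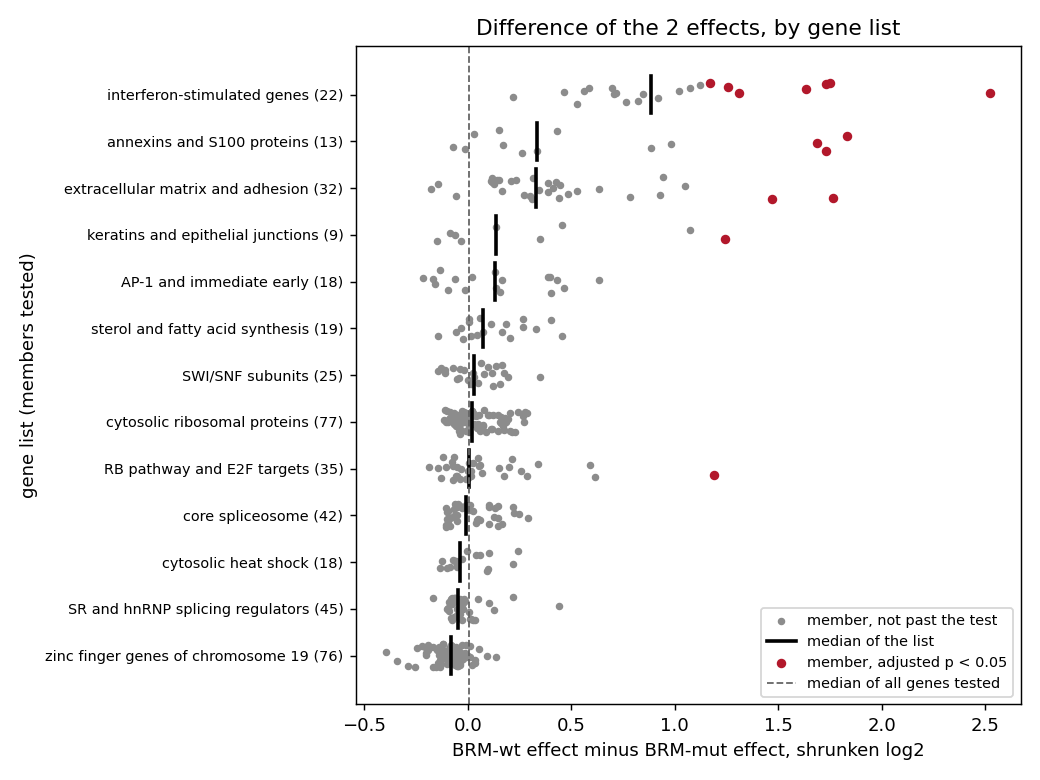
BRM-wt effect minus BRM-mut effect on the shrunken log2 scale (horizontal axis) for each tested member of the 13 gene lists, with the list median as a black bar, called members in red and the median of all genes tested as a dashed line. The median is highest for interferon-stimulated genes (0.88) and lowest for zinc finger genes of chromosome 19 (-0.08), and sideways scatter within a row carries no value.

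The difference moved with GC content. Among 11469 genes that reached a base mean of 100 in both tables, Spearman's rho between the difference and exonic GC was 0.62. This is a relation across genes of the same 6 libraries, and genes are no replicates. The rho was 0.22 for the BRM-wt effect and -0.74 for the BRM-mut effect. The median difference was -0.07 in the lowest of 5 GC bins (median 38.3%) and 0.18 in the highest bin (59.7%). The zinc finger genes of chromosome 19 had a median GC of 42.0%, the SR and hnRNP genes of 41.0% and all genes tested of 47.2%. The 43 called genes had a median GC of 49.3%, and 39 of the 43 passed after the trend with GC was subtracted. KRT8, IGFBP4, HELZ2 and SYNM did not.

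The filter on base mean in both tables left out genes that were near 0 without active BRM. When the mean of the 2 base means had to reach 10 instead, 72 of 16389 genes passed (0.439%), all higher in BRM-wt, and 22 of them had been outside the test. These 22 passed the filter only through the BRM-wt table, where they are high, so the filter fixed their direction and their number supports nothing. This filter, and the genes named next, were chosen after the data were seen. SPARC, a collagen-binding matrix protein, had base means of 153 and 5.54 and a difference of 2.71 ± 0.29. KRT80, an epithelial keratin, had 210 and 2.81. CD44, the hyaluronan receptor, had 171 and 6.10, and its difference was 1.79 ± 0.29. TGFBI, a secreted matrix protein, had 59.7 and 7.90. The antiviral membrane proteins IFITM3 and BST2 had 55.1 and 2.60, and 36.4 and 0.25, respectively. MX2, the paralog of MX1, had 149 and 3.28.

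The wild-type and mutant BRG1 tables share the control libraries, so their values are set beside those of BRM without a test. The ratio of base means of wild-type over mutant BRG1 had a median of 3.99 over the 43 genes, from 1.70 to 28.9. Over all genes tested that median was 1.00. IFI6 had base means of 2399 and 330 in the BRG1 tables, UCA1 had 689 and 99.7, and MX1 had 1943 and 66.0.

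The PSI libraries stood apart before any comparison of groups. The 2 BRM-wt libraries differed from each other by a median absolute PSI of 0.41 over 283 exons listed for both, and 81.3% of these exons differed by at least 0.2. The 2 BRM-mut libraries differed by 0.14 over 49 exons and the 2 control libraries by 0.17 over 382 exons. BRM-wt replicate 2 differed from control replicate 1 by 0.08 over 342 exons, and BRM-wt replicate 1 differed from control replicate 2 by 0.09 over 302 exons. Against the control of the same replicate the BRM-wt libraries differed by 0.29 and 0.26, but there each exon was listed because it differed. BRM-mut replicate 2 differed from control replicate 1 by 0.09 over 88 exons, BRM-mut replicate 1 from control replicate 2 by 0.27 over 150 exons, and BRM-wt replicate 2 from BRM-mut replicate 1 by 0.06 over 123 exons. BRM-mut differed from the control of its own replicate by 0.23 in replicate 1 and 0.22 in replicate 2, over exons listed in the same way. That listing raises the distance to the own control, so these values cannot show which control a library lay nearer to. Whether a replicate number marks the same replicate in each group was not tested, and every comparison within a replicate number rests on it. With 2 libraries against 2, an exact permutation test cannot give a two-sided p below 0.333, so PSI values are given as they are, replicate by replicate.

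In replicate 1 the exons far apart mostly had higher PSI with BRM-wt. The 118 exons compared were 14.8% of the 799 exons listed for BRM-wt and 23.7% of the 497 listed for BRM-mut. PSI was higher in BRM-wt for 64 exons, lower for 46 and equal for 8, with a median difference of 0.02. In 51 exons (43.2%) the libraries were at least 0.2 apart, 36 higher and 15 lower in BRM-wt. That split depended on exons whose change against the control went opposite ways in the replicates of a BRM group. Without them 2 exons of replicate 1 were at least 0.2 apart, 0 higher and 2 lower in BRM-wt. The median PSI over the 118 exons was 0.43 in the control, 0.60 in BRM-wt and 0.42 in BRM-mut.

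In replicate 2 the exons far apart mostly had lower PSI with BRM-wt. The 129 exons were 13.7% of the 945 exons listed for BRM-wt and 26.9% of the 479 listed for BRM-mut. PSI was higher in BRM-wt for 50, lower for 67 and equal for 12, with a median difference of -0.01. Only 22 exons (17.1%) were at least 0.2 apart, 6 higher and 16 lower in BRM-wt. Without exons of opposite changes 7 remained, 2 higher and 5 lower. The median PSI was 0.47 in the control, 0.34 in BRM-wt and 0.50 in BRM-mut. In replicate 1 the rho between the PSI difference and the GC content of the exon was 0.51 over 118 exons, and in replicate 2 it was -0.39 over 129 exons. The exons of each replicate come from the same 3 libraries. The median absolute difference between BRM-wt and BRM-mut was 0.14 in replicate 1 and 0.05 in replicate 2. The 0.41 between the BRM-wt replicates comes from a differently chosen set of exons and cannot be set against these values. The plot of PSI shows more exons above the line of equal PSI in replicate 1 and below it in replicate 2.

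**Figure D4:**
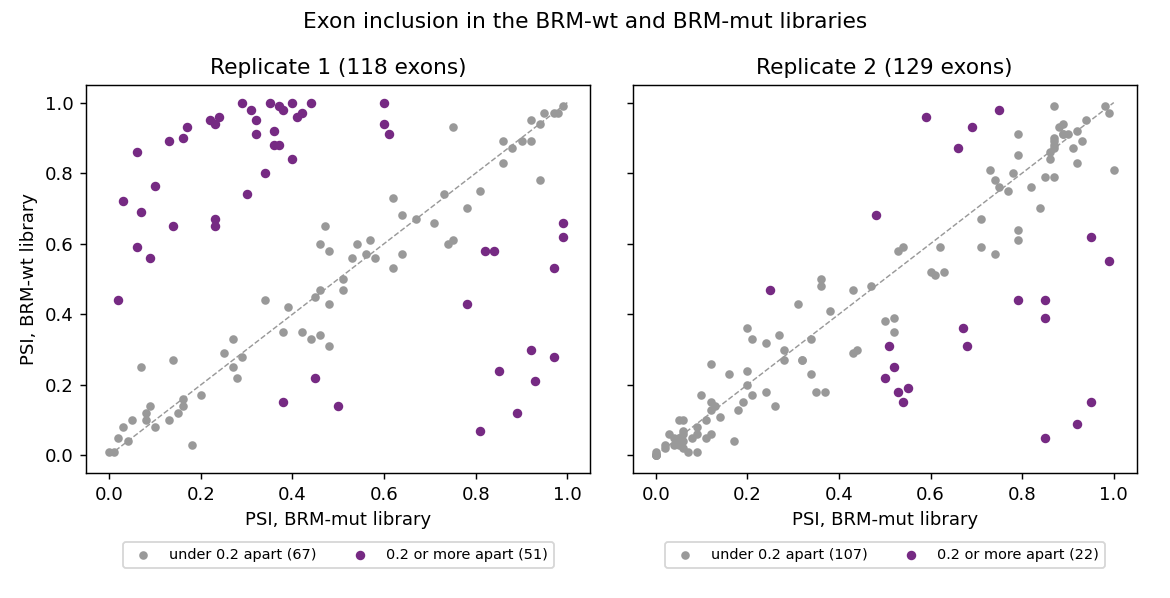
PSI in the BRM-mut library (horizontal axis) and the BRM-wt library (vertical axis) of each exon listed for both, with 118 exons in replicate 1 and 129 in replicate 2. Purple exons are at least 0.2 apart (51 and 22), the dashed line marks equal PSI, and each point comes from 1 library per group without error.

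The largest gains with BRM-wt in replicate 1 were in exons that were coding in whole or in part. The largest was in TRIM65, a ubiquitin ligase gene (GRCh37 chr17:73888092-73888266, 175 bp), with PSI of 0.34 in the control, 0.86 in BRM-wt and 0.06 in BRM-mut. EMC4, a subunit of a membrane insertase (chr15:34517737-34517851, 115 bp), had 0.24, 0.89 and 0.13 in the same order. TGIF2, a homeobox repressor (chr20:35219313-35219412, 100 bp), had 0.42, 0.93 and 0.17. ATP6V0E2, a proton pump subunit (chr7:149575767-149575879, 113 bp), had 0.48, 0.95 and 0.22. In these 4 exons the BRM-mut library lay below the control and the BRM-wt library above it. All 4 are among the exons of opposite changes, whose change against the control reversed between the replicates of a BRM group. Without such exons no exon of replicate 1 was at least 0.2 higher in BRM-wt.

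The largest losses with BRM-wt in replicate 1 were partly in long annotated exons. ZNHIT1, a subunit of another remodelling complex, had PSI of 0.41 in the control, 0.12 in BRM-wt and 0.89 in BRM-mut for a region of 3478 bp. B3GAT3, a glycosyltransferase gene, had 0.38, 0.07 and 0.81 for a region of 239 bp. BBLN had 2 forms that share a start, of 341 bp with 0.66, 0.21 and 0.93, and of 949 bp with 0.78, 0.28 and 0.97. INO80E, a subunit of the INO80 remodelling complex, had 0.50, 0.30 and 0.92 for 3446 bp. In these 5 regions the order was the opposite, with BRM-wt lowest and BRM-mut highest. Of the 15 exons of replicate 1 at least 0.2 lower in BRM-wt, 2 remained without exons of opposite changes.

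In replicate 2 the largest loss with BRM-wt was in MAGEA2B, a cancer-testis gene with a near-identical copy, so that its reads are of uncertain origin. Its 2 forms of 311 and 79 bp had PSI of 0.09 and 0.15 in BRM-wt and 0.92 and 0.95 in BRM-mut, with controls of 0.22 and 0.38. WIZ, a zinc finger partner of a histone methyltransferase (chr19:15540397-15540900, 504 bp), had 0.48 in the control, 0.05 in BRM-wt and 0.85 in BRM-mut. ABCC1, a drug transporter gene (195 bp), had 0.98, 0.39 and 0.85, and PHB2, a prohibitin (6 bp), had 0.01, 0.55 and 0.99. The largest gain was in RPLP1, a ribosomal stalk protein, with 0.43, 0.96 and 0.59. The next were a non-coding transcript on chromosome 16 with 0.40, 0.93 and 0.69, RPS3 with 0.67, 0.98 and 0.75, ZNF687 with 0.14, 0.47 and 0.25, and BBLN (949 bp) with 0.53, 0.87 and 0.66. Without exons of opposite changes, 2 of the 6 higher exons and 5 of the 16 lower exons of replicate 2 remained.

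Only 11 exons could be compared in both replicates. PSI was higher in BRM-wt in replicate 1 and lower in replicate 2 for 8 of them, the reverse held for 2, and 1 exon kept its direction. The BRM-wt values of the replicates were a median of 0.45 apart over the 11 exons, those of BRM-mut 0.19 and those of the controls 0.20. Over the same exons BRM-wt and BRM-mut were a median of 0.46 apart in replicate 1 and 0.20 in replicate 2. The CCND3 exon (chr6:41904297-41904433, minus strand, exon 4, coding, 137 bp), in a D-type cyclin gene, had 0.92 and 0.36 in BRM-wt, 0.36 and 0.67 in BRM-mut, and 0.68 and 0.88 in the controls. The BRM-wt libraries were thus the highest and, with 1 BRM-mut library, the lowest of the 6, and the groups overlapped. The RPS15A exon (chr16:18799385-18799481, 97 bp) had 0.94 and 0.61 with BRM-wt and 0.60 and 0.79 with BRM-mut. The sequence of the CCND3 exon is shown as a coding cassette exon with a wide swing, with those of 2 very short exons that were at least 0.2 apart, IMMT (chr2:86380683-86380697, minus strand, chosen after its values were seen) and PHB2 (chr12:7075074-7075079, minus strand). Capitals mark the exon and lower case 10 intron bases on each side.
CCND3: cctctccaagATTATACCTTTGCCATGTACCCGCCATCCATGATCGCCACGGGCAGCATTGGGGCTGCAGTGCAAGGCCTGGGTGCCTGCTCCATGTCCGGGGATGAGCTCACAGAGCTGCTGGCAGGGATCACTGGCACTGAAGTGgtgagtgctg
IMMT: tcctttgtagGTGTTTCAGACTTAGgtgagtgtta
PHB2: ggcaccacagGGGAAGgtaagctgtt

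The CCND3 exon is 59.9% GC and its length is not a multiple of 3. The IMMT exon, of a gene of mitochondrial cristae, had PSI of 0.24 in BRM-wt and 0.85 in BRM-mut in replicate 1. All 3 exons shown have the standard AG before and GT after them.

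Among the remaining exons, BRD2, a bromodomain gene, had 0.94 and 0.25 in BRM-wt and 0.23 and 0.52 in BRM-mut for a region of 1333 bp. ZC3H4 had 0.65 and 0.27 against 0.14 and 0.32, YTHDF1, a reader of methylated adenosine in RNA, had 0.80 and 0.35 against 0.34 and 0.52, and RBM4, a splicing regulator, had 0.84 and 0.31 against 0.40 and 0.51. BBLN and RPS3 ran the other way, with BRM-wt at 0.28 and 0.87 and at 0.62 and 0.98. An exon of RP11-1212A22.4 was at 0.10 or less in all 4 libraries. KLHL5 was the single exon whose groups did not overlap, with 0.33 and 0.33 in BRM-wt and 0.44 and 0.34 in BRM-mut, a mean difference of -0.06. That difference was smaller than the 0.10 between its BRM-mut replicates, and its controls were at 0.17 and 0.50. The plot of these exons shows the BRM-wt replicates at opposite ends in most rows.

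**Figure D5:**
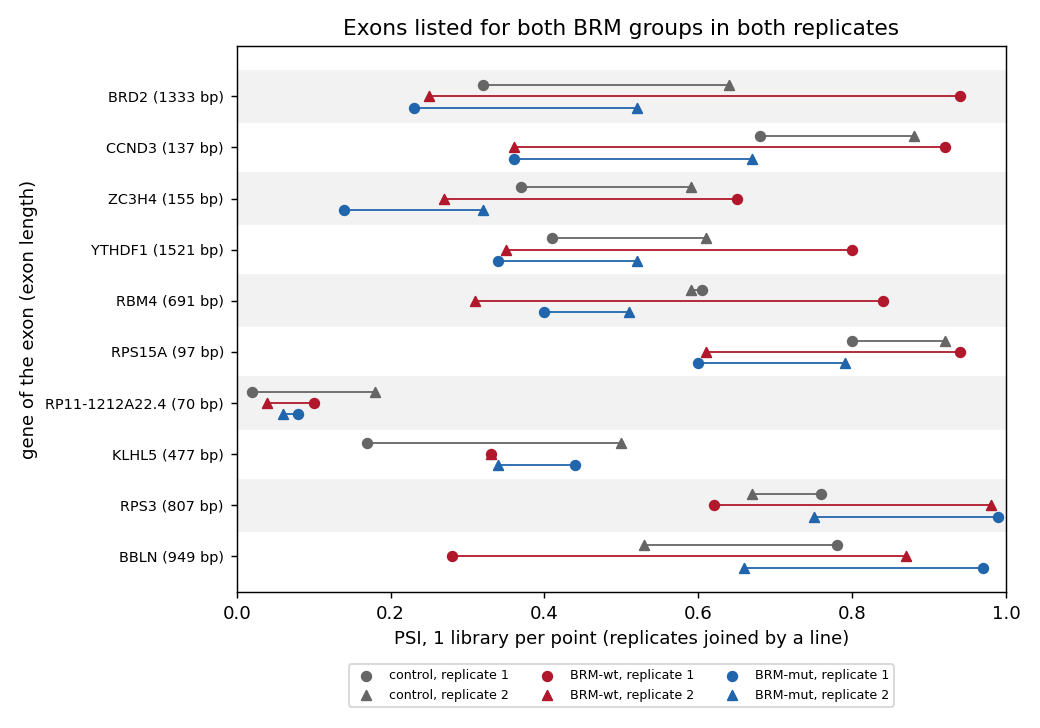
PSI of 10 of the 11 exons listed for both BRM groups in both replicates, with 1 library per point (circles replicate 1, triangles replicate 2, a line joining replicates) for control (grey), BRM-wt (red) and BRM-mut (blue). The red lines are the longest in most rows, and over all 11 exons the medians were 0.45 for BRM-wt, 0.19 for BRM-mut and 0.20 for control.

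The exons of MYL6, GADD45A and MAZ could not be compared between the groups, because they were listed for BRM-wt only. Exon 2 of GADD45A (chr1:68151708-68151809), a growth arrest gene, was at 0.08 in the control and 0.49 in BRM-wt in replicate 1, and at 0.19 and 0.04 in replicate 2. Exon 6 of the myosin light chain gene MYL6 (chr12:56554410-56554454) was at 0.07 and 0.14 in replicate 1 and at 0.10 and 0.06 in replicate 2. Exon 5 of MAZ (chr16:29820861-29821085), a zinc finger factor, was listed in replicate 1 with 0.08 and 0.13.

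Genes with a compared exon were also looked up in the expression test. The exons compared in either replicate lie in 214 genes, of which 202 were tested for expression, and 0 of these passed the normal test with Benjamini-Hochberg adjustment, where 0.267% of all genes did. At an unadjusted p under 0.05 there was 1 of the 202, beside 1.38% of all genes. Counts this small do not tell these genes from all genes tested. Their median expression difference was 0.01. Of the 43 called genes, PLSCR1 and SYNM had an exon listed in any table, and neither had an exon that could be compared between BRM-wt and BRM-mut.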

How the data were processed

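RNA-seq was compared between 2 BRM-wt and 2 BRM-mut samples of C33A cells, with 2 control samples, grouped by their titles. The authors aligned reads with TopHat2 2.0.4 to GRCh37, counted them per gene with HTSeq 0.6.1 with duplicates kept, and ran DESeq2 per group against the control. The deposited tables give a base mean and a Wald statistic (unit: score), a log2 fold change, that fold change's standard error (log2), and raw and adjusted p-values, over 2 pooled libraries a group. These fold changes are the authors' own comparisons and were used as inputs because no counts per library were used here. They were shrunken to an unequal degree, with a highest standard error of 0.282 in the BRM-wt table and 0.159 in the BRM-mut table. The authors estimated PSI, a fraction, with MISO per library against the control of the same replicate, and the deposited lists hold events with a Bayes factor (score) above 10.

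The difference of the fold changes was divided by the square root of the summed squared errors and tested against the normal distribution, two-sided, with Benjamini-Hochberg adjustment over 16084 genes (Python 3.11.15, SciPy 1.17.1). The shared controls make this error too large. The errors are those of shrunken fold changes, and the difference over its error had an SD of 0.61 over the genes tested. The p-values are therefore no plain measure of the spread between samples. The test was checked on simulated data. These held changes in BRM-wt only and no shrinkage of effects, so the check does not cover the unequal shrinkage or genes changed by BRM-mut. PSI was averaged over the events of an exon. Exons and genes were placed with GENCODE on GRCh37, promoters come from RefSeq on GRCh38.p14, and 55139 of 63152 gene IDs had a symbol. Named were SMARCA2 and SMARCA4, the 10 genes of smallest p in each direction, 3 genes per list, MYL6, GADD45A and MAZ, the exons in all 4 tables and 5 exons per direction and replicate. The members and lists were chosen with earlier results of these data known. Some items of this rule are not reported here.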

Additional observations from a re-analysis of the deposited data

Results flagged for a closer look

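The effect against the control differed between BRM-wt and BRM-mut for 43 genes by the test of the difference itself, all higher in BRM-wt. The unequal shrinkage of the fold changes may set part of that direction. No group had enough samples for a search for outlying libraries.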

How the results depend on the processing

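The count of 43 genes whose effect differed moved with the statistical treatment, and under every fit run all called genes were higher in BRM-wt. The shared direction is no independent support. Every fit reused the same shrunken fold changes or their Wald statistics, and the filter on the mean of both base means fixed the direction of the genes it added. The count was 109 with a covariance for the shared controls and 19 with the difference of Wald statistics. It was 65 with no filter on base mean, 72 with a mean of both base means of at least 10 (added after seeing the data), and 16 with at least 100 in both tables, a filter that removes genes low in BRM-mut. It was 26 at adjusted p under 0.01, and 145 genes had a ratio of base means of at least 2 in either direction. With the GC trend subtracted 42 passed, and 43 had a difference of at least 1. The 43 genes all passed with the covariance, and 19 of them with Wald statistics. Of 51 named genes, 1 no longer passed after GC subtraction and 3 with Wald statistics, whereas 2 newly passed with the covariance, LAMB1 and KRT18.

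The count of exons at least 0.2 apart in either replicate was 67, and 22 to 51 with 1 replicate left out. Leaving out exons with opposite changes in the replicates gave 9 in all, 2 in replicate 1 (0 higher and 2 lower in BRM-wt) and 7 in replicate 2. At a difference of 0.1 there were 106 in all and 48 in replicate 2, and at 0.3 there were 14 in replicate 2. Counting every event, asking for Bayes factors above 20 or leaving out short overlapping forms kept each count of exons within 1.5 times. Of the 11 exons in all 4 tables, 7 had Bayes factors above 20, with 0 in the same direction, and 0 remained without exons of opposite changes.

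No paired analysis was possible because the expression tables pool the replicates. For PSI the paired differences of the 11 exons are given as values, since an exact sign-flip test of 2 pairs cannot give a two-sided p below 0.5, and no model was fitted to them. Leaving out a replicate was not run for expression, as the tables pool the replicates. The depth of single libraries limits both and is unknown here.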
